A study of Mus musculus with 8 samples.

Results

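A set of 9 genes of DNA methylation was followed in mouse embryonic stem cells: the maintenance pair Dnmt1 and Uhrf1, the de novo methyltransferase genes Dnmt3a, Dnmt3b and their cofactor Dnmt3l, the erasers Tet1 and Tet2, and the methylation guards Zfp57 and Dppa3. They are a named list, drawn up with earlier results of these data known, and were found by gene symbol. They are 9 of the 57010 genes in the count table, and all 9 were among the 17976 genes that passed the filter on low counts. RNA sequencing covered 8 libraries in 4 groups of 2. The cells labelled HSVTK carry a reporter that places herpes simplex thymidine kinase under the control of the 2-cell-like (2C-like) state, so that the nucleoside drug ganciclovir (GANC) should kill cells in that state. The groups are HSVTK cells with GANC, HSVTK cells with the solvent DMSO, Control cells with GANC and Control cells with DMSO. All are described as mouse embryonic stem cells. Dose, duration, strain and passage are not given in the labels, nor is what the Control cells carry, and whether the HSVTK cells are 1 clone is not said.

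Methylation of cytosine in CpG pairs is copied after each DNA replication by Dnmt1, which Uhrf1 brings to hemimethylated sites. Dnmt3a and Dnmt3b place new marks, and the catalytically inactive Dnmt3l helps them do so in germ cells and stem cells. Tet enzymes oxidise methylcytosine and so open a way to its loss. Zfp57 binds the methylated allele of imprinted control regions and keeps it methylated through the early embryo, whereas Dppa3 shields the maternal genome from oxidation in the zygote and can also hold back Uhrf1. In stem cells the balance of these genes differs between the naive, the formative and the 2C-like state.

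RefSeq (GRCm38.p6) gave windows from 250 bases before to 50 bases after each listed start for 8 of the 9 genes, 17 windows in all. On this build Dnmt1 lies on chromosome 9, Dnmt3a on 12, Dnmt3b on 2, Dnmt3l and Tet1 on 10, Uhrf1 and Zfp57 on 17, Tet2 on 3 and Dppa3 on 6. Windows are shown because several of these genes have starts that differ widely in CpG content, and counts per gene add all starts together. The 3 printed are an internal start of Dnmt3a (chr12:3891494-3891793, plus strand, 18 CpG), which lies downstream of the 2 other listed starts of that gene (46 and 47 CpG), the only listed start of Dnmt3b (chr2:153649199-153649498, plus strand, 30 CpG) and that of Tet2 (chr3:133544341-133544640, minus strand, 57 CpG). Capitals mark ACGTG on either strand, the core of the hypoxia response element. Where ACGTG stands inside the E-box CACGTG, which reads the same on both strands, the 2 matches overlap.
Dnmt3a internal start: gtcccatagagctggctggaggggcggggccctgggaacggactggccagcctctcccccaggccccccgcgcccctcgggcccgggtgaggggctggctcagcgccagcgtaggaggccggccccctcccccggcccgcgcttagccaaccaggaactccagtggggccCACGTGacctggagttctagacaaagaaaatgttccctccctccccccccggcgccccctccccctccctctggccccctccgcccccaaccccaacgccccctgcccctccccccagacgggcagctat
Dnmt3b: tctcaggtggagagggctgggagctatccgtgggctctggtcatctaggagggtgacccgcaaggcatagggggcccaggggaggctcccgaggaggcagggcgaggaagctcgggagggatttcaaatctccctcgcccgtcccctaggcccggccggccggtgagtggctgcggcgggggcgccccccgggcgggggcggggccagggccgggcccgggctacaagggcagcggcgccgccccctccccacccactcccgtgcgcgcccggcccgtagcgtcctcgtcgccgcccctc
Tet2: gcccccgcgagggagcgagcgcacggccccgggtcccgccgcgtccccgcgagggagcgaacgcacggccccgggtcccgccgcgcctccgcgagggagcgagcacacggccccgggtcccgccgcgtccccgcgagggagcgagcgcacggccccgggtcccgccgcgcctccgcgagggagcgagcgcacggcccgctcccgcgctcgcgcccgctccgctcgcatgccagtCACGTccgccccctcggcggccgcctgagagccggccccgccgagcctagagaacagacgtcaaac
The Tet2 window had more CpG than 99.8% of the 32851 RefSeq windows of this length, whose median was 7. The internal Dnmt3a window had more than 70.3% of them. ACGTG stood in 4 of the 17 windows and in 19.6% of all windows, and CACGTG in 2 of the 17 and in 7.15%. TGCCGC, the core motif that Zfp57 binds when its CpG is methylated, stood in 2 of the 17, which overlap at the upstream Dnmt3a starts, and in 11.6% of all windows. The octamer ATTTGCAT stood in 0 of the 17 and in 1.74%. All motifs were searched on both strands, and a match is only a run of letters. The counts do not tell which start was used.

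The libraries held 29704460 to 34184475 counts. Separate cultures for the 2 libraries of a group are not stated in the labels, and p-values therefore speak only of the spread between libraries, possibly a technical one. The libraries labelled HSVTK GANC went against the aim of the reporter. Zscan4c, a gene of the 2C-like state, had 8.73 and 9.11 CPM (its count for every 1000000 assigned counts) in these, against 4.71 and 3.60 CPM in HSVTK DMSO, 4.97 and 4.07 CPM in Control GANC and 5.13 and 4.04 CPM in Control DMSO. Directions below are therefore those of the libraries labelled HSVTK GANC, not of cells shown to have lost the 2C-like state. Whether the HSVTK labels were exchanged was not tested. If GANC and DMSO were exchanged there, every HSVTK drug change below would have the opposite sign, and each comparison of HSVTK with Control cells would set the other HSVTK libraries against the same Control libraries. The HSVTK GANC libraries also had the largest share of mitochondrial counts, 3.56 and 3.45% against 2.88 to 3.17% in the other 6 libraries, and the most genes with a count, 25146 and 25656 against 23777 to 24772. The part of these differences in the results was not tested. Of the 6 pluripotency markers, Pou5f1, Sox2 and Nanog included, all had counts, and their sum was 3390 to 3457 CPM in HSVTK GANC, 3512 to 3544 in HSVTK DMSO, 3327 to 3465 in Control GANC and 3215 to 3223 in Control DMSO. In bulk RNA, fewer cells that express a gene and less RNA of it per cell cannot be told apart.

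Of the 9 genes, Dnmt3a had the lowest adjusted p for the drug in HSVTK cells and was 1.60-fold lower in libraries labelled HSVTK GANC than in the HSVTK DMSO ones, while Zfp57 was higher by 0.26 on the log2 scale. Dppa3 stood 5.75-fold lower in HSVTK GANC than in Control GANC. Tet2 was higher, and Dnmt3b and Dppa3 were lower, in HSVTK than in Control cells under either treatment. Dnmt1, Uhrf1 and Tet1 did not pass the edgeR test in either comparison of HSVTK with Control cells in the main fit. With library size scaling Uhrf1 passed under DMSO (edgeR adjusted p = 0.0427).

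**Figure D1:**
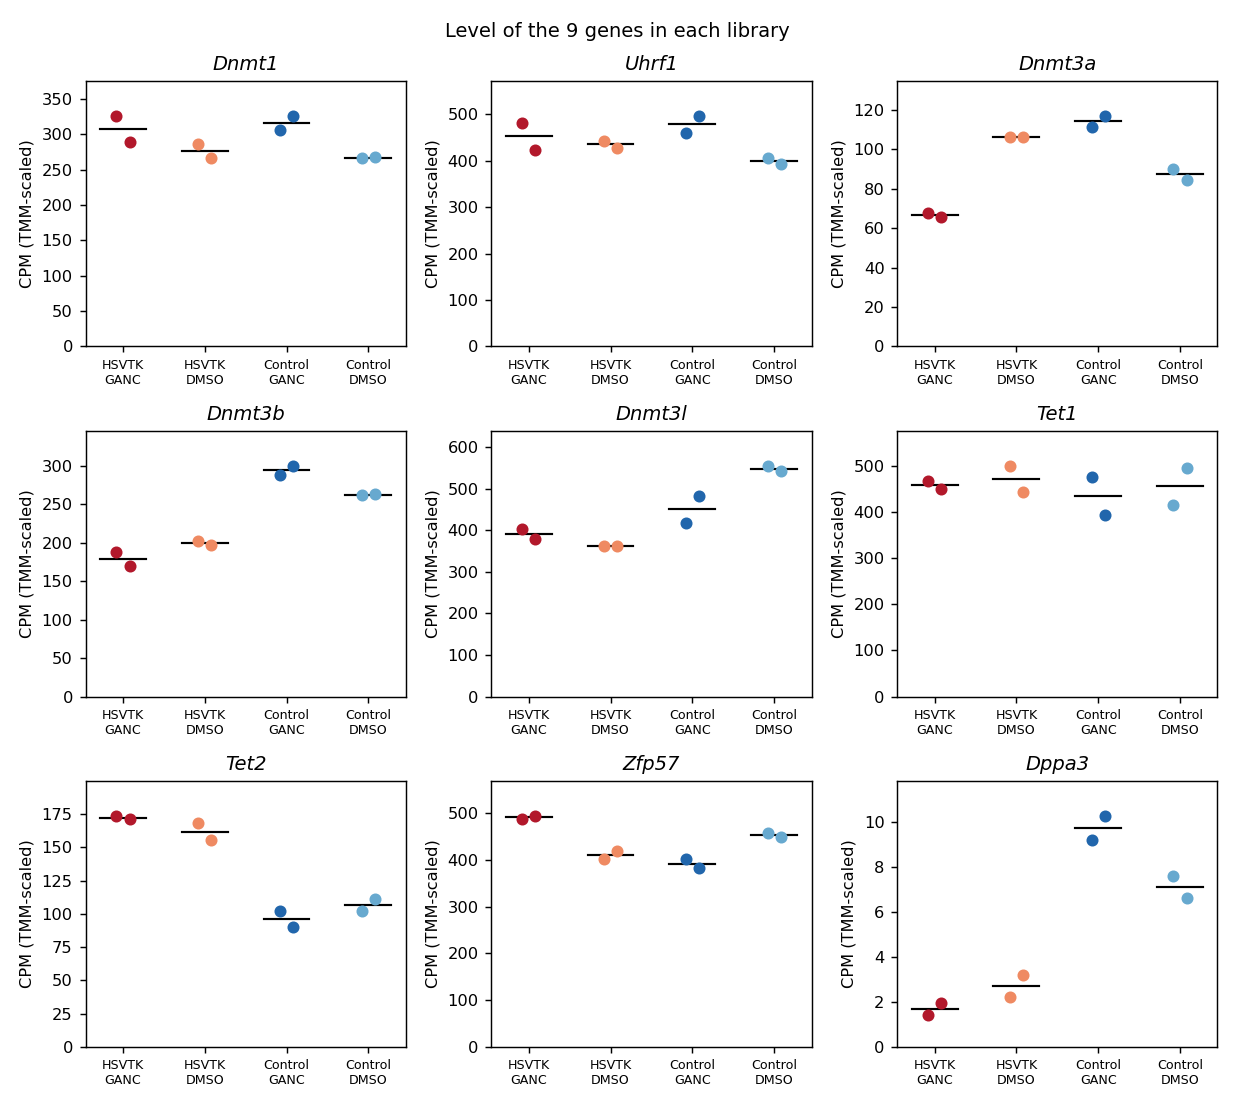
Level of the 9 genes in each library, in CPM scaled by the trimmed mean of M-values (TMM), on axes that start at 0. Each point is a library, the line is the mean of the 2 libraries of a group, and groups run from HSVTK GANC to Control DMSO. Dnmt3b, Dnmt3l, Tet2 and Dppa3 separate the 4 HSVTK from the 4 Control libraries, Dnmt3l narrowly, while the Tet1 points of all groups overlap.

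Maintenance genes were close in level across the 4 groups. Levels of single genes are in CPM after TMM scaling, and a gene is called where its adjusted p is below 0.05. Dnmt1 (ENSMUSG00000004099), the maintenance methyltransferase, had 326 and 289 CPM in HSVTK GANC, 286 and 266 CPM in HSVTK DMSO, 305 and 325 CPM in Control GANC and 266 and 268 CPM in Control DMSO. Both Control GANC libraries lay above both Control DMSO libraries, and Dnmt1 rose there by 0.24 ± 0.06 on the log2 scale (SE; edgeR quasi-likelihood F test over all tested genes, Benjamini-Hochberg adjusted p = 0.0147). In HSVTK cells the change with the drug was 0.16 ± 0.06 (edgeR adjusted p = 0.0588). It was called with library size scaling (0.19, edgeR adjusted p = 0.0195) and with only the 4 libraries compared (0.15, edgeR adjusted p = 0.0343). The responses, HSVTK minus Control, differed by -0.08 ± 0.09 (edgeR adjusted p = 0.532). The call in Control cells did not hold where Control DMSO replicate 1 (adjusted p = 0.117), Control DMSO replicate 2 (0.105) or Control GANC replicate 2 (0.0842) was left out, and in HSVTK cells a call was gained without HSVTK GANC replicate 2 (0.0166), Control GANC replicate 1 (0.0321) or Control GANC replicate 2 (0.0347). HSVTK and Control cells differed by 0.05 under DMSO (edgeR adjusted p = 0.608) and by -0.04 under GANC (edgeR adjusted p = 0.715).

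Uhrf1 (ENSMUSG00000001228), the adaptor that recognises hemimethylated DNA, had 481 and 424 CPM in HSVTK GANC, 444 and 428 CPM in HSVTK DMSO, 460.1 and 497 CPM in Control GANC and 406 and 392 CPM in Control DMSO. The HSVTK groups overlapped, and the change with the drug was 0.06 ± 0.06 there (edgeR adjusted p = 0.541). In Control cells Uhrf1 rose by 0.26 ± 0.06 with the drug (edgeR adjusted p = 0.00631), a call lost without Control DMSO replicate 2 (0.103). The difference of the 2 responses was -0.21 ± 0.08 (edgeR adjusted p = 0.072), and it passed without Control GANC replicate 1 (0.00573) or HSVTK GANC replicate 1 (0.00927). Between the cell groups Uhrf1 differed by 0.13 ± 0.06 under DMSO (edgeR adjusted p = 0.105), which passed where Control GANC replicate 1 (0.0385) or Control GANC replicate 2 (0.0399) was left out, and by -0.08 under GANC (edgeR adjusted p = 0.357). The value under DMSO also passed with library size scaling (edgeR adjusted p = 0.0427) and with only the 4 libraries compared (edgeR adjusted p = 0.00774). Without the filter on low counts the difference of the responses passed too (edgeR adjusted p = 0.0426). Uhrf1 and Dnmt1 kept nearly the same ratio in every library: per gene length, in FPKM, Uhrf1 over Dnmt1 was 2.55 and 2.55 in HSVTK GANC, 2.69 and 2.79 in HSVTK DMSO, 2.61 and 2.65 in Control GANC and 2.64 and 2.54 in Control DMSO.

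Each de novo gene was called between HSVTK and Control cells under both treatments in the main fit. The Dnmt3l call under GANC was lost in 7 of 17 alternatives. Dnmt3a (ENSMUSG00000020661), a de novo methyltransferase that stem cells make largely as a short isoform, had 67.8 and 65.5 CPM in HSVTK GANC, 107 and 106 CPM in HSVTK DMSO, 111 and 117 CPM in Control GANC and 90.2 and 84.7 CPM in Control DMSO. The HSVTK GANC libraries were the lowest of all 8, and no 2 groups overlapped. With the drug Dnmt3a fell in HSVTK cells by 0.67 ± 0.07 on the log2 scale (edgeR adjusted p = 1.3e-08) and rose in Control cells by 0.38 ± 0.07 (edgeR adjusted p = 0.000597). The difference of these responses was -1.06 ± 0.09 (edgeR adjusted p = 2.33e-09), and it stayed past the threshold in each of 16 alternative settings, as did the fall in HSVTK cells in each of 17. The rise in Control cells was not called by limma on log2(FPKM + 1) (adjusted p = 0.0573). HSVTK cells had more Dnmt3a than Control cells under DMSO (log2 difference 0.28 ± 0.07, edgeR adjusted p = 0.00138) and less under GANC (-0.78 ± 0.07, edgeR adjusted p = 5.73e-10).

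Dnmt3b (ENSMUSG00000027478), the de novo enzyme of the early embryo, had 188 and 169 CPM in HSVTK GANC, 202 and 197 CPM in HSVTK DMSO, 288 and 299.7 CPM in Control GANC and 261 and 263 CPM in Control DMSO. All 4 HSVTK libraries lay below all 4 Control libraries. The log2 difference between the cell groups was -0.39 ± 0.06 under DMSO (edgeR adjusted p = 6.86e-06) and -0.72 ± 0.06 under GANC (edgeR adjusted p = 2.54e-10), past the threshold in every alternative. The drug changed Dnmt3b by -0.16 ± 0.06 in HSVTK cells (edgeR adjusted p = 0.042). The call was lost in 10 of 17 alternatives, among them library size scaling (edgeR adjusted p = 0.104) and limma on log2(FPKM + 1) (adjusted p = 0.12). That call did not hold without HSVTK GANC replicate 2 (log2 change -0.10, adjusted p = 0.336), HSVTK DMSO replicate 1 (0.211), HSVTK DMSO replicate 2 (0.126), Control DMSO replicate 1 (0.0608) or Control DMSO replicate 2 (0.0584). In Control cells the change was 0.17 ± 0.06 (edgeR adjusted p = 0.0818), past the threshold without Control GANC replicate 1 (0.0271) or HSVTK GANC replicate 2 (0.049). DESeq2 also called the change in Control cells (DESeq2 adjusted p = 0.0337). The difference of the responses was -0.33 ± 0.08 (edgeR adjusted p = 0.0043).

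Dnmt3l (ENSMUSG00000000730), the cofactor without catalytic activity, had 404 and 379 CPM in HSVTK GANC, 361 and 361 CPM in HSVTK DMSO, 418 and 483 CPM in Control GANC and 555 and 541 CPM in Control DMSO. The Control DMSO libraries were the highest and the HSVTK DMSO libraries the lowest, a log2 difference of -0.60 ± 0.06 (edgeR adjusted p = 5.5e-09) that passed in every alternative. With the drug Dnmt3l fell in Control cells, by 0.28 ± 0.06 (log2 change -0.28, edgeR adjusted p = 0.00386), while in HSVTK cells it changed by 0.12 ± 0.06 (edgeR adjusted p = 0.161). The difference of the responses was 0.40 ± 0.09 (edgeR adjusted p = 0.000843). Under GANC the cell groups differed by -0.20 ± 0.06 (edgeR adjusted p = 0.0127). That difference was not called with library size scaling (edgeR adjusted p = 0.0554) or with only the 4 libraries compared (edgeR adjusted p = 0.0571). Nor was it called by limma on log2(FPKM + 1) (adjusted p = 0.136). The fall in Control cells was not called without Control DMSO replicate 1 (0.0707), nor without Control GANC replicate 1 (log2 change -0.17, adjusted p = 0.0546), and the difference under GANC without Control GANC replicate 2 (-0.10, adjusted p = 0.235) or HSVTK GANC replicate 2 (0.12). The gene Aire, which overlaps Dnmt3l on the other strand, had 1733 and 1935 counts in HSVTK GANC, 1929 and 2123 in HSVTK DMSO, 1351 and 1241 in Control GANC and 993 and 1025 in Control DMSO. Use of strand in counting was not given in the sources used here, and reads from the overlap of Dnmt3l and Aire cannot be assigned with certainty.

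The makeup of the de novo set differed between groups when set per gene length. The FPKM of Dnmt3b over that of Dnmt3a was 9.02 and 8.42 in HSVTK GANC, 6.19 and 6.06 in HSVTK DMSO, 8.45 and 8.34 in Control GANC and 9.43 and 10.1 in Control DMSO. The ratio was thus lowest in HSVTK DMSO, with no overlap with any other group. Dnmt3l over Dnmt3b was 3.67 and 3.82 in HSVTK GANC, 3.05 and 3.13 in HSVTK DMSO, 2.48 and 2.75 in Control GANC and 3.63 and 3.52 in Control DMSO, so that the drug groups had the higher ratio in HSVTK and the lower ratio in Control cells. The table has 1 length per gene (16642 bases for Dnmt3a), and where transcripts use only part of it FPKM is too low. Isoform use was not measured, so a shift of isoforms between groups could move these ratios.

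**Figure D2:**
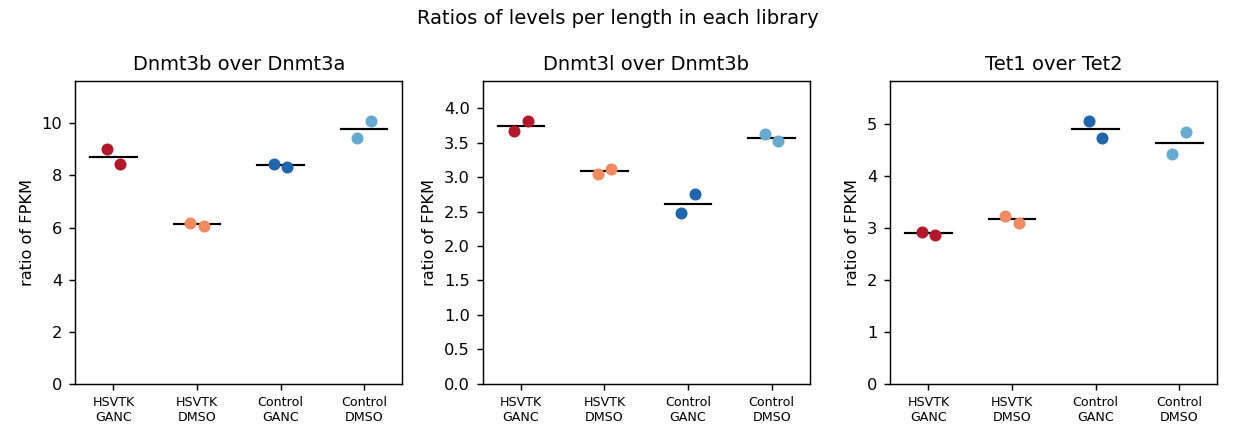
Ratios of FPKM (level per gene length) between pairs of the genes in each library, on axes that start at 0, for HSVTK GANC, HSVTK DMSO, Control GANC and Control DMSO. Points are libraries and lines are group means; Tet1 over Tet2 is 2.87 to 3.24 in the 4 HSVTK libraries and 4.42 to 5.07 in the 4 Control libraries.

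Among the erasers, Tet1 and Tet2 behaved differently. Tet1 (ENSMUSG00000047146), the main Tet enzyme of stem cells, had 466 and 450.2 CPM in HSVTK GANC, 499.8 and 442 CPM in HSVTK DMSO, 475 and 393 CPM in Control GANC and 415 and 496 CPM in Control DMSO. The 4 groups overlapped, and no difference between groups passed the test. The log2 change with the drug was -0.04 ± 0.08 in HSVTK cells (edgeR adjusted p = 0.745) and -0.07 ± 0.08 in Control cells (edgeR adjusted p = 0.667). Under GANC the cell groups differed by 0.08 (edgeR adjusted p = 0.51), and without Control GANC replicate 1 by 0.20 (adjusted p = 0.0365).

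Tet2 (ENSMUSG00000040943), an eraser without a DNA-binding CXXC domain of its own, had 174 and 171 CPM in HSVTK GANC, 168 and 156 CPM in HSVTK DMSO, 102 and 90.5 CPM in Control GANC and 102 and 111 CPM in Control DMSO. Every HSVTK library lay above every Control library. Tet2 was higher in HSVTK than in Control cells by 0.60 ± 0.07 under DMSO (edgeR adjusted p = 6.26e-08) and by 0.84 ± 0.07 under GANC (edgeR adjusted p = 2.02e-10), in all 17 alternatives. The drug itself gave 0.09 ± 0.07 in HSVTK cells (edgeR adjusted p = 0.349) and -0.15 ± 0.07 in Control cells (edgeR adjusted p = 0.208), and the difference of the responses was 0.24 ± 0.10 (edgeR adjusted p = 0.0711). Without Control GANC replicate 1 the last 2 values passed (0.0438 in Control cells and 0.0134 for the difference). With library size scaling the difference of the responses passed as well (edgeR adjusted p = 0.0498). Per gene length, Tet1 over Tet2 was 2.93 and 2.87 in HSVTK GANC, 3.24 and 3.10 in HSVTK DMSO, 5.07 and 4.74 in Control GANC and 4.42 and 4.86 in Control DMSO.

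Tet3, the Tet enzyme of the egg, is not among the 9 and is given here after its values were seen. It averaged 4.24 ± 1.26 CPM in HSVTK GANC, 5.48 ± 0.389 CPM in HSVTK DMSO, 12.3 ± 0.239 CPM in Control GANC and 11.5 ± 1.27 CPM in Control DMSO (SD, n = 2 each). HSVTK cells had less Tet3 under DMSO (log2 difference -1.07 ± 0.16, edgeR adjusted p = 5.73e-06) and under GANC (-1.54 ± 0.17, edgeR adjusted p = 3.67e-08), the opposite direction to Tet2. With the drug it changed by -0.37 ± 0.18 in HSVTK cells (edgeR adjusted p = 0.117), and by -0.72 (adjusted p = 0.0132) without HSVTK GANC replicate 1. The 30 genes next to Tet3 on chromosome 6 had a median log2 difference of -1.07 under DMSO and -1.01 under GANC, against -1.07 and -1.54 for Tet3 itself. The 21 to 30 neighbours of each of the 9 genes had medians between -0.14 and 0.19 in the 4 pairwise comparisons. Those of Dppa3, also on chromosome 6, had medians of 0.19 under DMSO and -0.09 under GANC.

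The imprint guard Zfp57 (ENSMUSG00000036036), a zinc finger protein that recruits heterochromatin factors to methylated imprinted regions, had 488 and 495 CPM in HSVTK GANC, 402 and 419 CPM in HSVTK DMSO, 402 and 383 CPM in Control GANC and 459 and 449 CPM in Control DMSO. Both HSVTK GANC libraries were above all others. With the drug Zfp57 rose in HSVTK cells by 0.26 ± 0.05 on the log2 scale (edgeR adjusted p = 0.000475) and fell in Control cells by 0.21 ± 0.05, a log2 change of -0.21 (edgeR adjusted p = 0.0137). The difference of the responses was 0.47 ± 0.08 (edgeR adjusted p = 2.95e-05). The rise and the difference passed in every alternative, whereas the fall in Control cells missed the threshold without Control DMSO replicate 1 (0.182), replicate 2 of that group (0.132) or Control GANC replicate 2 (0.0741). Between the cell groups Zfp57 differed by -0.15 ± 0.05 under DMSO (edgeR adjusted p = 0.0361) and by 0.32 ± 0.05 under GANC (edgeR adjusted p = 3.35e-05). The call under DMSO was lost in 10 of 17 alternatives. Among them were library size scaling (edgeR adjusted p = 0.087) and limma on log2(FPKM + 1) (adjusted p = 0.0844). The DMSO value was not called without Control DMSO replicate 1 (0.244), Control DMSO replicate 2 (0.147), HSVTK DMSO replicate 1 (0.344) or HSVTK DMSO replicate 2 (0.107).

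Dppa3 (ENSMUSG00000046323), also called Stella, had the lowest counts of the 9, with 45 and 65 counts in HSVTK GANC, 71 and 109 in HSVTK DMSO, 309 and 310 in Control GANC and 247 and 194 in Control DMSO. In CPM these were 1.43 and 1.94 in HSVTK GANC, 2.21 and 3.18 in HSVTK DMSO, 9.19 and 10.3 in Control GANC and 7.60 and 6.63 in Control DMSO. All 4 HSVTK libraries were below all 4 Control libraries. The log2 difference between the cell groups was -1.40 ± 0.20 under DMSO (edgeR adjusted p = 1.96e-06) and -2.52 ± 0.21 under GANC (edgeR adjusted p = 1.78e-10), both past the threshold in all 17 alternatives. With the drug Dppa3 fell in HSVTK cells (log2 change -0.68 ± 0.23, edgeR adjusted p = 0.0261), and changed by 0.45 ± 0.18 in Control cells (edgeR adjusted p = 0.119). The call in HSVTK cells was lost in 7 of 17 alternatives. The fall in HSVTK cells was lost without HSVTK DMSO replicate 2 (log2 change -0.39, edgeR adjusted p = 0.362) and without HSVTK GANC replicate 1 (log2 change -0.48, edgeR adjusted p = 0.232), and in DESeq2 (0.0629). The difference of the responses was -1.13 ± 0.29 (edgeR adjusted p = 0.00427), and -0.85 (adjusted p = 0.0612) without HSVTK DMSO replicate 2.

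**Figure D3:**
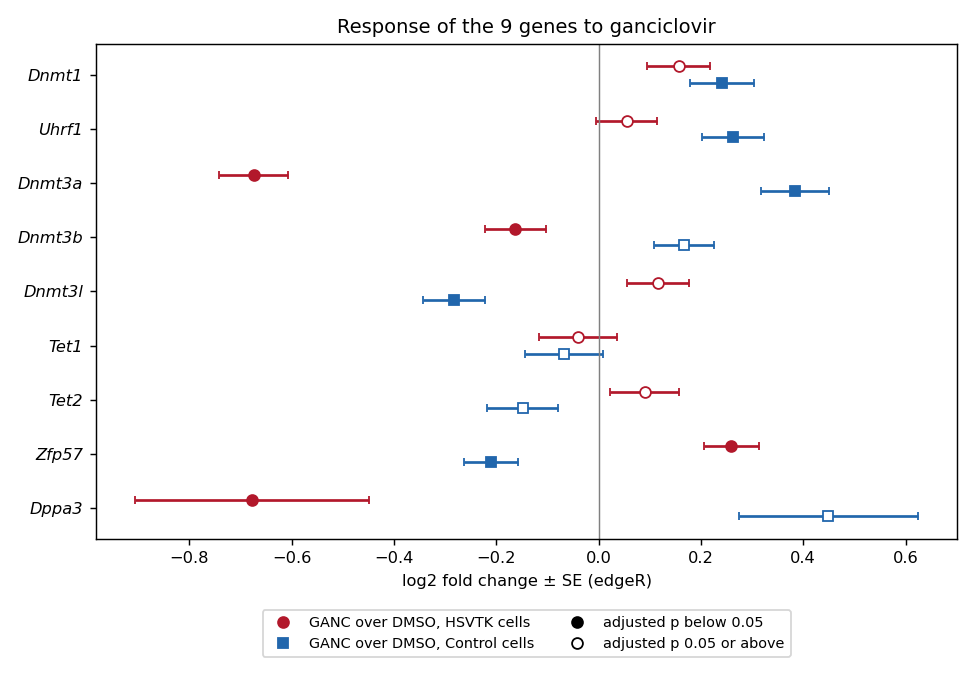
Log2 fold change of GANC over DMSO with its SE for the 9 genes, HSVTK cells as circles and Control cells as squares, from edgeR with 2 libraries per group; filled symbols have an adjusted p below 0.05. Dnmt3a is at -0.67 in HSVTK and 0.38 in Control cells, and Zfp57 at 0.26 in HSVTK and -0.21 in Control cells.

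Counted over the set, 1 gene was higher with the drug in HSVTK cells (Zfp57) and 3 were lower (Dnmt3a, Dnmt3b and Dppa3), while 5 of the 9 did not pass. Over all tested genes 28.5% were called in that comparison, 13.3% higher and 15.2% lower. The higher share of these calls was 46.7%, and 54.3% with library size scaling. The median log2 change was 0.06 over the 9 genes and 0.01 over all genes. In Control cells 3 of the 9 were higher (Dnmt1, Uhrf1 and Dnmt3a), 2 lower (Dnmt3l and Zfp57) and 4 not called. There the share over all genes was 8.08% (4.73% higher and 3.35% lower), and the median was 0.17 over the 9 genes, with 0.00 over all genes. In a limma fit of log2(FPKM + 1) 0 of the 9 were called in Control cells. Over all tested genes limma called 190 there and edgeR 1453. An unadjusted p under 0.05 was reached by 7 of the 9 in limma and by 8 in edgeR, which called 5 after adjustment. Leaving out HSVTK DMSO replicate 2 lowered the calls for the drug in HSVTK cells most, both among the 9 and over all genes. Both also fell without HSVTK DMSO replicate 1, HSVTK GANC replicate 1 or either Control DMSO library. For the drug in Control cells the calls fell likewise without Control DMSO replicate 1, Control DMSO replicate 2 or Control GANC replicate 2.

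The difference of the drug responses, HSVTK minus Control, was called for 5 of the 9 genes, positive for Dnmt3l and Zfp57 and negative for Dnmt3a, Dnmt3b and Dppa3. Over all tested genes 25.6% were called, 11.6% positive and 14.0% negative, and the median was -0.08 over the 9 genes, with 0.02 over all genes. Dnmt3a and Zfp57 were called in opposite directions in the 2 cell groups. With 9 genes chosen by name, these counts describe the genes and are no test of the set.

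**Figure D4:**
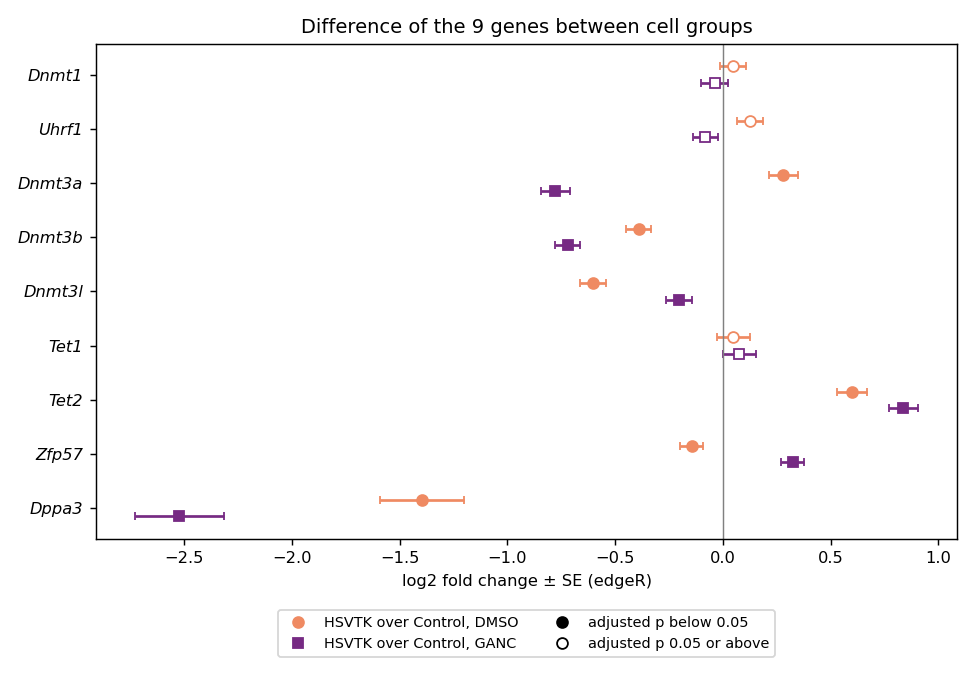
Log2 fold change of HSVTK over Control cells with its SE for the 9 genes, under DMSO (circles) and under GANC (squares), from edgeR with 2 libraries per group; filled symbols have an adjusted p below 0.05. Dppa3 is at -1.40 under DMSO and -2.52 under GANC, Tet2 at 0.60 and 0.84, and Dnmt3a changes side between 0.28 and -0.78.

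Between HSVTK and Control cells, 2 of the 9 were higher (Dnmt3a and Tet2) and 4 lower (Dnmt3b, Dnmt3l, Zfp57 and Dppa3) under DMSO. Over all tested genes 33.7% were called there, 16.4% higher and 17.3% lower, with a median of 0.05 over the 9 genes and 0.00 over all genes. Under GANC 2 were higher (Tet2 and Zfp57) and 4 lower (Dnmt3a, Dnmt3b, Dnmt3l and Dppa3), against 26.1% called over all genes, 11.1% higher and 14.9% lower, with a median of -0.08 over the 9 genes and 0.01 over all genes. Of these genome-wide calls under GANC 42.8% were higher, and 54.1% with library size scaling. The 2 comparisons share no library, but each shares its libraries with the drug comparisons. Markers of other cell types also differed between groups. The summed level of 8 primitive endoderm markers was 74.6 to 81.6 CPM in HSVTK GANC, 60.6 to 66.0 in HSVTK DMSO, 42.6 to 46.9 in Control GANC and 40.1 to 41.9 in Control DMSO. Most of that sum was Lama1, with 73.0 and 66.0 CPM in HSVTK GANC and 56.2 and 52.3 CPM in HSVTK DMSO. The lineage factor Gata4 did not follow the sum with the drug, with 1.33 and 0.675 CPM in HSVTK GANC and 2.53 and 1.46 CPM in HSVTK DMSO, and neither did Pdgfra, with 1.36 and 1.56 CPM in HSVTK GANC and 1.78 and 2.11 CPM in HSVTK DMSO. Sox7 did follow it, with 1.75 and 2.61 CPM in HSVTK GANC and 0.748 and 0.644 CPM in HSVTK DMSO. With the drug in HSVTK cells 2 of these 8 markers were called higher and 0 lower. The summed level of 8 markers of the 2C-like state was 30.1 to 34.04 CPM in HSVTK GANC, 16.4 to 17.4 in HSVTK DMSO, 12.02 to 14.2 in Control GANC and 13.3 to 15.5 in Control DMSO. The sum of 9 fibroblast markers was 21.0 to 21.7 CPM in HSVTK GANC, 21.1 to 24.3 in HSVTK DMSO, 15.01 to 16.9 in Control GANC and 10.1 to 11.4 in Control DMSO, most of it Thy1, with 15.4 and 17.5 CPM in HSVTK GANC and 15.1 and 15.8 CPM in HSVTK DMSO. The collagen gene Col1a2 did not follow that sum, with 0.0649 to 0.146 CPM in the HSVTK and 0.211 to 0.424 CPM in the Control libraries, and Postn and Dcn were at 0 in both HSVTK groups. Of the primitive endoderm markers 5 of 8 were higher in HSVTK than in Control cells under GANC and 3 of 8 under DMSO. The part of these cells in the values of the 9 genes was not tested.

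Set per gene length, the order of the 9 genes was led by Dnmt3l in every group and differed below it. In HSVTK GANC, Dnmt3l averaged 134 FPKM and Zfp57 133 FPKM, with overlapping libraries, followed by Uhrf1 at 109, Dnmt1 at 42.7, Dnmt3b at 35.8, Tet1 at 30.4, Tet2 at 10.5, Dnmt3a at 4.10 and Dppa3 at 1.94. Dppa3 stood below Dnmt3a there, although its listed length of 892 bases is by far the shorter. In HSVTK DMSO, Dnmt3l averaged 121 FPKM, Zfp57 109, Uhrf1 102, Dnmt3b 39.2, Dnmt1 37.4, Tet1 30.5, Tet2 9.61, Dnmt3a 6.40 and Dppa3 3.03, and the Dnmt3b and Dnmt1 libraries overlapped. No other neighbours in the order overlapped in these or in the Control groups. In Control GANC, Dnmt3l averaged 149 FPKM, Uhrf1 111, Zfp57 103, Dnmt3b 57.0, Dnmt1 42.3, Tet1 27.8, Dppa3 10.8, Dnmt3a 6.78 and Tet2 5.65. In Control DMSO the order was Dnmt3l at 180.2 FPKM, Zfp57 at 118, Uhrf1 at 92.1, Dnmt3b at 50.4, Dnmt1 at 35.6, Tet1 at 29.0, Dppa3 at 7.84, Tet2 at 6.23 and Dnmt3a at 5.16. Dppa3 thus stood below Tet2 and Dnmt3a in both HSVTK groups and above both in the Control groups.

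The other genes of the pathway were taken from 6 lists chosen by role, 58 genes in all, of which 57 were tested. With the drug in HSVTK cells 14 were higher and 9 lower, with a median log2 change of 0.03, where 28.5% of all genes were called and their median was 0.01. In Control cells 4 were higher and 4 lower (median -0.04), where 8.08% of all genes were called (median 0.00). The difference of responses was positive for 14 and negative for 12 (median 0.08), beside 25.6% of all genes (median 0.02). In HSVTK against Control cells under DMSO 8 were higher and 20 lower (median -0.12), beside 33.7% of all genes (median 0.00), and under GANC 6 were higher and 13 lower (median -0.04), beside 26.1% of all genes (median 0.01). Among the 6 lists, that of 10 tested cofactors of maintenance and de novo methylation is given after its values were seen, with 1 higher and 6 lower under DMSO and 1 higher and 2 lower under GANC. With the drug it had 2 higher and 2 lower in HSVTK cells and 1 higher and 1 lower in Control cells.

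Some of these genes moved further than most of the 9. Tfap2c, a transcription factor of naive stem cells and germ cells, averaged 18.3 ± 0.110 CPM in HSVTK GANC and 36.9 ± 0.936 CPM in HSVTK DMSO (SD, n = 2 each), a log2 change of -1.01 ± 0.09 (edgeR adjusted p = 2.07e-09). The Control groups had 37.3 ± 0.344 CPM with GANC and 35.9 ± 2.93 CPM with DMSO, so that the HSVTK GANC libraries stood apart from the other 3 groups. Mat2a, which makes the methyl donor S-adenosylmethionine, averaged 557 ± 21.0 CPM in HSVTK GANC, 401 ± 10.1 CPM in HSVTK DMSO, 793 ± 5.80 CPM in Control GANC and 855 ± 10.1 CPM in Control DMSO. It was lower in HSVTK than in Control cells under DMSO (log2 difference -1.09 ± 0.05, edgeR adjusted p = 1.31e-15) and under GANC (-0.51 ± 0.05, edgeR adjusted p = 1.01e-08), and it rose with the drug in HSVTK cells by 0.47 ± 0.05 (edgeR adjusted p = 5.54e-08). Neighbours on the chromosome were examined only for the 9 genes and Tet3. Whether the genes around Mat2a, or around the other genes named here, differ likewise was not tested. Gldc, the glycine decarboxylase that feeds one-carbon metabolism, fell in HSVTK cells by 0.40 ± 0.06 (log2 change -0.40, edgeR adjusted p = 1.33e-05) and rose in Control cells by 0.30 ± 0.06 (edgeR adjusted p = 0.00303), the same pair of directions as Dnmt3a. Its rise in Control cells was not called without Control DMSO replicate 2 (0.116).

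Uhrf2, the relative of Uhrf1 that binds hydroxymethylated DNA, averaged 38.6 ± 2.16 CPM in HSVTK GANC and 55.5 ± 3.30 CPM in HSVTK DMSO (log2 change -0.53 ± 0.08, edgeR adjusted p = 1.62e-05). Atrx, a chromatin remodeller that acts at imprinted regions, and Dmap1, a Dnmt1 partner, fell with the drug in Control cells, with log2 changes of -0.36 ± 0.07 for Atrx (edgeR adjusted p = 0.00243) and -0.37 ± 0.08 for Dmap1 (edgeR adjusted p = 0.00628). Ehmt2, the H3K9 methyltransferase G9a, rose there by 0.27 ± 0.07 (edgeR adjusted p = 0.00928). Each of these 3 calls was lost without Control DMSO replicate 2 (Atrx 0.0856, Dmap1 0.101, Ehmt2 0.148), and Atrx and Ehmt2 also without Control GANC replicate 2 (0.0565 and 0.0768). Under DMSO, Zbtb38, a methyl-CpG reader, was lower in HSVTK than in Control cells (log2 difference -0.97 ± 0.10, edgeR adjusted p = 8.54e-09), and so was Atrx (-0.63 ± 0.07, edgeR adjusted p = 7.67e-08). Under GANC, Tfap2c was lower (log2 difference -1.03 ± 0.09, edgeR adjusted p = 9.68e-10), and so was Ehmt2 (-0.62 ± 0.07, edgeR adjusted p = 2.29e-08).

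**Figure D5:**
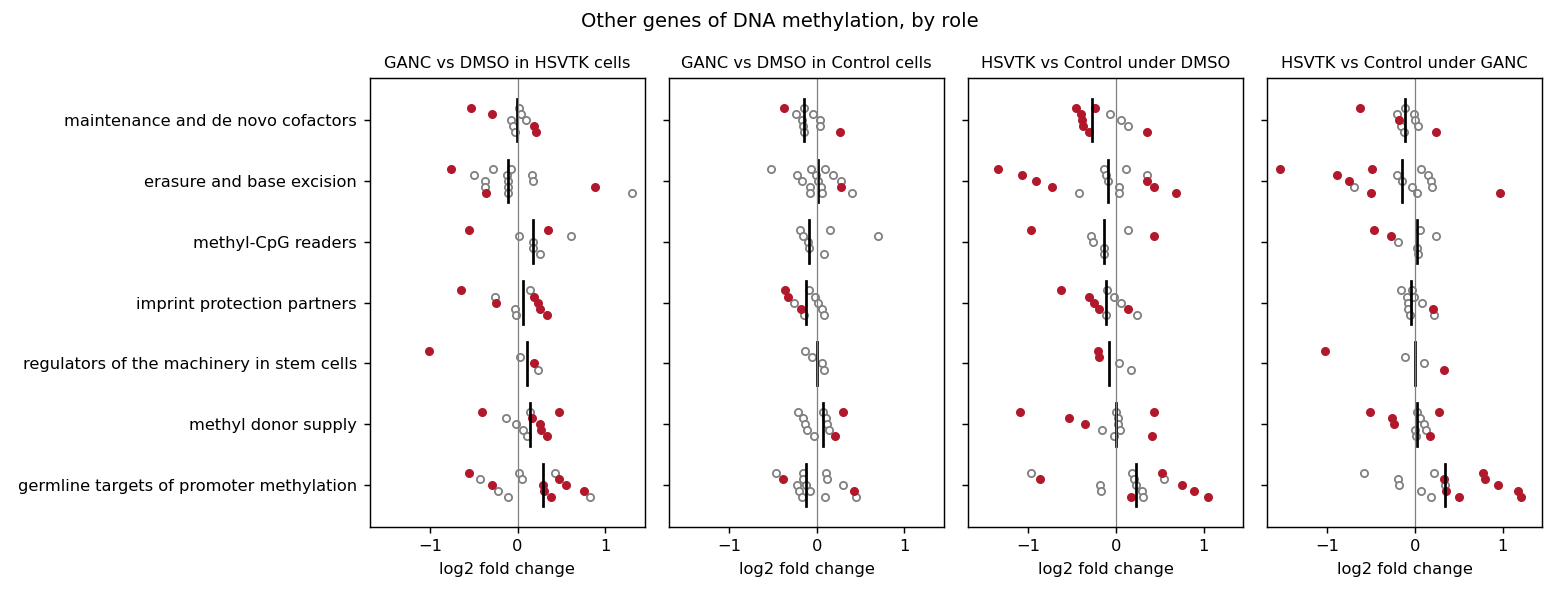
Log2 fold changes of the other methylation genes and of germline genes known as targets of promoter methylation, by list, in the 4 pairwise comparisons. Each point is a gene (filled where its edgeR adjusted p is below 0.05) and the bar is the list median; the cofactor list has medians of -0.01 and -0.14 for the drug in HSVTK and in Control cells, and of -0.27 under DMSO and -0.12 under GANC between the cell groups.

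The genes whose pattern was most like that of each member were those with the smallest root mean square difference of centred log2 CPM over the 8 libraries, among 9677 genes with a mean of at least 5 CPM. For Dnmt3a these were Pim1 and Acot1, at 0.06 each against a root mean square of 0.30 for Dnmt3a itself. For Dnmt3b they were Hif3a and Khk (0.05 each, against 0.29), and for Dnmt3l they were Nr0b1 and Got1 (0.06 each, against 0.24). Tet2 had Rnf17 at 0.09 and Tmem39a at 0.10 (against 0.37). Dppa3, whose own spread was wider, had Aass at 0.24 and Rhox5 at 0.30 (against 1.03). Dnmt1 was nearest to Nup214 and Naf1, Uhrf1 to Lmnb2 and Bag6, Tet1 to Zfp955a and Dpy19l4, and Zfp57 to Tor1b and Nup155. The 8 libraries share 4 groups, and the distances are a description.

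Apart from Aire at Dnmt3l, the copies and antisense genes examined had few counts. Dnmt3c, a rodent copy of Dnmt3b, had 0 to 10 counts per library, Dnmt3bos 0 to 16, Dnmt3aos 0 to 2, the pseudogene Dnmt3l-ps1 0 to 2 and Dppa3-ps 0 to 1. Reads that match a gene and its copy may have been dropped or shared before deposit, and their treatment was not given in the sources used here.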

How the data were processed

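RNA was sequenced from 8 libraries of mouse embryonic stem cells, grouped by the cell group and treatment in the labels. Raw counts for each gene, not normalized, and FPKM are the authors' deposited tables, and all 456080 deposited FPKM values equal the count divided by gene length and by the counts of the library, within 1e-05. Per the submitters' processing notes, the tools named are fastp 0.23.2, HISAT2 2.1.0, featureCounts 2.0.1 and DESeq2 1.40.2 and the build is GRCm39, without roles or parameters. Strand, multi-mapping reads and annotation were not given in the sources used here.

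Genes were tested with edgeR 4.0.16 (R 4.3.3), by the quasi-likelihood F test on the deposited counts with TMM scaling, filterByExpr by group, and 1 mean per group over all 8 libraries, which leaves 4 residual degrees of freedom. It was fitted on 17976 genes, and p-values were adjusted over all of them (Benjamini-Hochberg, called below 0.05). The 5 comparisons were GANC against DMSO in HSVTK and in Control cells, the difference of these responses, and HSVTK against Control cells under each treatment. Errors of log2 changes are standard errors, the change divided by the square root of F, and the biological coefficient of variation was 6.31%. Alternatives were DESeq2 1.42.0, limma 3.58.1 on log2(FPKM + 1) or with 0.1, other scalings, no filter, fits on only the 4 libraries compared, the replicate number as a block and leaving out each library. Simulated data with known changes were used to test the fit: for the drug in HSVTK cells it recovered 64% of log2 changes of 0.5 and 84% of changes of 1 among 17430 genes, with 3.27% false calls. For the drug in Control cells it recovered 62% and 88% with 6.25% false calls (17457 genes). For HSVTK against Control under DMSO it recovered 65% and 89% with 4.94% (17438 genes). Each run changed 100 genes per size in 1 group, with the spread of each gene set by its level. In the data 28.5% of genes were called for the drug in HSVTK cells. Changes below 0.5, and spreads that differ between groups or between genes of a level, were not simulated. These rates may therefore not carry over to the data.

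The 9 genes and the other lists were chosen with earlier results of these data known. The text names all 9, up to 4 called genes of the other lists with the lowest adjusted p in each comparison, and the 2 genes nearest in pattern to each member. Promoter windows are from RefSeq (GRCm38.p6), and gene neighbours (15 on each side with a mean of at least 5 CPM) from the GENCODE order of that assembly; the build differs from that of the counts, and windows were matched by symbol.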

Additional observations from a re-analysis of the deposited data

Results flagged for a closer look

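The response to GANC was tested for a difference between HSVTK and Control cells (edgeR interaction, HSVTK minus Control, adjusted over all tested genes). Over all tested genes 25.6% were called. Genes outside the 9 were named for a low adjusted p, some of them in this same test. The 15 named genes that passed are therefore no independent finding. Of the 9 genes these were Dnmt3a (-1.06, adjusted p = 2.33e-09), Dnmt3b (-0.33, 0.0043), Dnmt3l (0.40, 0.000843), Zfp57 (0.47, 2.95e-05) and Dppa3 (-1.13, 0.00427). Among the other genes of the pathway the difference was negative for Tfap2c (-1.07, adjusted p = 3.03e-07), Gldc (-0.70, 7.16e-07), Uhrf2 (-0.56, 0.000575) and Ehmt2 (-0.32, 0.0116). It was positive for Mat2a (0.58, adjusted p = 6.43e-07), for Atrx (0.62, 4.78e-05), for Cbx5, which encodes heterochromatin protein HP1 alpha (0.51, 2.72e-05), for Zbtb38 (0.51, 0.00767) and for Dmap1 (0.39, 0.0172). Mael, a germline gene of transposon silencing, had -0.72 (adjusted p = 0.000522).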

How the results depend on the processing

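Over the 9 genes and 5 comparisons, 26 of 45 results were called, and 14 of these 26 kept their call in every alternative. No called value changed sign. Over all tested genes 28.5% were called for the drug in HSVTK cells, 8.08% in Control cells and 25.6% for the difference. Between the cell groups 33.7% were called under DMSO and 26.1% under GANC. The 5 comparisons reuse the same 8 libraries, so the 45 results are not separate. Of 756 alternative values 675 stayed called or stayed uncalled, 62 lost the call and 19 gained it. Among values called in neither fit the sign could change: Tet1 between the cell groups under DMSO ran from -0.07 to 0.19. DESeq2 called 4189 genes for the drug in HSVTK cells, 1386 in Control cells, 3787 for the difference, 5115 under DMSO and 3828 under GANC. With limma on log2(FPKM + 1), with 0.1 in place of 1 and without a filter, 2, 2 and 2 members were called for the drug in HSVTK cells and 0, 0 and 0 in Control cells (at an unadjusted p under 0.05, 7, 7 and 7 in Control cells; edgeR called 5). The genes called in Control cells were then 190, 251 and 29, and 942 with only the 4 libraries compared. Limma without a filter called 2615 genes for the drug in HSVTK cells, 1981 genes and 2 members for the difference, 3652 genes under DMSO and 2288 under GANC. The causes were not tested. The labels do not say that the replicate numbers pair the libraries, and deviations of same-numbered libraries correlated between -0.16 and 0.09 over 10093 genes. With the number as a replicate block 4932, 1339, 4433, 5882 and 4517 genes and 3, 5, 5, 5 and 6 members were called for the drug in HSVTK cells, the drug in Control cells, the difference, the cell groups under DMSO and those under GANC. Among members the block ended the call of Dnmt3b for the drug in HSVTK cells (adjusted p = 0.0541) and of Zfp57 under DMSO (0.0517), both in edgeR. Leaving out each library gave 3313 to 5627 genes and 2 to 5 members for the drug in HSVTK cells, 433 to 2010 genes and 2 to 6 members in Control cells, 3415 to 4638 genes and 4 to 7 members for the difference, 4399 to 6560 genes and 5 to 7 members under DMSO, and 2999 to 4497 genes and 5 to 7 members under GANC. For the drug in HSVTK cells 3380 genes were called without HSVTK DMSO replicate 1 and 3313 without replicate 2, in Control cells 592 and 433 without Control DMSO replicate 1 and 2 and 728 without Control GANC replicate 2, and under GANC 2999 without HSVTK GANC replicate 2. A group left with 1 library is assumed to vary like the others. The groups did not vary alike when the 2 libraries of each were set against counting noise. Chi-square per degree of freedom was 6.24 in HSVTK GANC, 3.58 in HSVTK DMSO, 8.39 in Control GANC and 3.86 in Control DMSO. Dppa3, with 45 to 310 counts, is the member that depth limits most.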

Other observations

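A list of 16 germline genes known as targets of promoter methylation had 15 tested members. Not all were silent here: Rpl10l, named after its values were seen, averaged 167 to 213 CPM in the 4 groups, although it is a copy of Rpl10 whose reads may be shared with it. In HSVTK against Control cells under GANC 8 were higher and 0 lower in edgeR (median log2 difference 0.35, against 0.01 over all genes, of which 26.1% were called), and under DMSO 5 were higher and 1 lower (0.23, against 0.00 over all genes, of which 33.7% were called). With the drug 6 were higher and 2 lower in HSVTK cells (median 0.29), where 28.5% of all genes were called, and 1 was higher and 1 lower in Control cells (-0.12), where 8.08% of all genes were called. Tex19.1, a germline gene of retrotransposon control, averaged 176 ± 4.72 CPM in HSVTK GANC, 135 ± 6.23 CPM in HSVTK DMSO, 102 ± 12.1 CPM in Control GANC and 93.5 ± 3.96 CPM in Control DMSO (SD, n = 2 each). Its log2 difference between the cell groups was 0.79 ± 0.07 under GANC (edgeR adjusted p = 1.3e-09). Mael averaged 21.8 ± 0.178 CPM in HSVTK GANC, 26.7 ± 0.709 CPM in HSVTK DMSO, 17.3 ± 1.46 CPM in Control GANC and 12.9 ± 0.257 CPM in Control DMSO, and was higher in HSVTK cells by 1.05 ± 0.10 under DMSO (edgeR adjusted p = 4.82e-09). Not all members followed this direction: Fkbp6, picked after its values were seen, averaged 5.90 ± 0.291 CPM in HSVTK DMSO and 10.7 ± 1.82 CPM in Control DMSO (log2 difference -0.86 ± 0.15, edgeR adjusted p = 3.43e-05). DNA methylation itself was not measured in these libraries.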
